A study of Mus musculus with 4 samples.

Results

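The cytosolic ribosomal protein genes were taken as all genes whose symbol begins with Rpl or Rps and a digit, without the Rps6k kinases, together with Rplp0, Rplp1, Rplp2, Rpsa, Eef1a1 and Tpt1, and without names that carry the pseudogene suffix -ps. This gave 88 of 31053 genes. By name, 52 belong to the large subunit and 34 to the small subunit, and the other 2, Eef1a1 and Tpt1, are not ribosomal proteins. Rps19bp1 is counted with the small subunit by its name only, since it encodes a protein that binds a small-subunit protein.

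B16 melanoma cells, a transplantable mouse line, were grown for 12 days in the right flank of male C57BL/6 mice with the genotype ATPIF1 knock-out (KO) or wild-type (WT). The product of Atpif1 inhibits the ATP synthase of mitochondria, and the labels describe neither its allele nor the tissues in which it is deleted. The tumour cells came from the same injected line in both groups, so their own genes do not differ by group. Tumour suspensions were pooled by genotype, CD45+ leukocytes were sorted, and about 17400 cells per chip position were loaded for a single 5′ RNA library per genotype. The labels give 6 mice without saying whether this is per genotype. With 1 library per genotype no difference could be tested, and no p-value is given. Intervals are 95% intervals that cover counting error only.

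Cytosolic ribosomes join a small subunit, which reads the mRNA, to a large subunit, which forms the peptide bond, and most of their proteins are present once in each ribosome. The mRNAs of these proteins, and of Eef1a1 and Tpt1, are classed as TOP mRNAs: they begin with a C followed by a run of pyrimidines, through which mTOR signalling and Larp1 control their translation and storage. Resting lymphocytes are known to hold large stores of such mRNAs and to recruit them to ribosomes on activation. Eef1a1 delivers aminoacyl-tRNA to the ribosome, and Tpt1 is an abundant protein linked to growth.

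The library labelled KO held 24385843 unique molecular identifiers (UMIs, each counting 1 captured transcript) and that labelled WT 35152477. After filtering at 1000 UMIs, 500 genes and 10% mitochondrial UMIs, 3211 and 4370 barcodes remained, with medians of 4266 and 4314 UMIs, and 29 barcode sequences were kept in both. Classes were gated on marker UMIs, which placed 2777 and 3712 barcodes in a class. Their names stand for the markers: T cell markers summed to 3249.7 and 2109 CPM (UMIs per 1000000 UMIs of the class) in CD8 T cells, against 6.63 and 2.64 in macrophages. The gates were drawn on these same markers, so this difference followed from the gates and does not check the names. Barcodes that passed gates of more than 1 lineage (157 and 290) or none (277 and 368) were left out. Atpif1, the targeted gene, goes against the label: the library labelled KO had 679 CPM of it over the kept cells, against 576 in that labelled WT, and CD8 T cells had 261 CPM against 122. A 5′ tag outside a deleted stretch would be counted in both genotypes, so this level does not check the deletion, and every direction below rests on the label.

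The starts of a few members are shown first because the pyrimidine run at the start is what defines the TOP class. The 10 sequences belong to the members at the top and bottom of the comparison of CD8 T cells with monocytes and macrophages described below. Each has 30 bases from the RefSeq promoter table (GRCm38.p6), the first 10 of them before the annotated start. Capitals mark the longest run of a C followed by 4 or more C or T. Rps24 and Rps27l had 2 starts each, and a start with such a run near it was preferred for printing. The start printed for Rps27l lies inside the gene, which begins at position 66944624. The printed sequences of these genes are therefore no unselected sample of starts. The first 6 had ratios among the highest. They lie at chr3:90213629-90213658 on the minus strand (Rps27), chr7:45128726-45128755 minus (Rpl13a), chr7:118116128-118116157 minus (Rps15a), chr2:32961702-32961731 plus (Rpl12), chr14:24490668-24490697 plus (Rps24) and chr9:114982720-114982749 minus (Rps27rt). The last 4 had ratios among the lowest and lie at chr9:66946076-66946105 plus (Rps27l), chr15:80264287-80264316 minus (Rps19bp1), chr17:46782637-46782666 minus (Rpl7l1) and chr12:69184048-69184077 minus (Rpl36al).
Rps27: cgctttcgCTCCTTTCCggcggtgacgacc
Rpl13a: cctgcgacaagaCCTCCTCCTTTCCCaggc
Rps15a: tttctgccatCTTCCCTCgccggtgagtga
Rpl12: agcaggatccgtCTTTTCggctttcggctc
Rps24: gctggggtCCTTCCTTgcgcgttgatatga
Rps27rt: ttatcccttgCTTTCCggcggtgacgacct
Rps27l: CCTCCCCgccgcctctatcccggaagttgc
Rps19bp1: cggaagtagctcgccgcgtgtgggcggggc
Rpl7l1: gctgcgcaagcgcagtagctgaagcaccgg
Rpl36al: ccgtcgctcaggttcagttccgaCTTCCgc

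The run begins exactly at the annotated start in Rps15a and Rps27rt and spans it in Rps27 and Rps24, and in Rps27 the start base is itself a C of the run. The longest run lies before the printed start in Rps27l, which has a further, shorter run directly after that start base. Rps19bp1 and Rpl7l1 have no such run in these 30 bases. The promoter table held 68 of the 88 members with 80 starts. Among those not found were Rpl21, Rpl8, Rpl32, Rps29, Rps27a, Rps20, Rpl36, Rpl3, Rpl29, Rps14, Rpl23a, Rpl7, Rplp1, Rpl17 and Rpl30. The start base was a C followed by 4 or more C or T, whether or not the run reached further back, at 14 of the 80 member starts (17.5%), at 2.47% of the 32771 starts of all other genes and at 0 of 75 starts of mitochondrial ribosomal proteins. Such a C lay within 10 bases of the start at 53.75% of member starts and 30.67% of the others. The letters CCGGAAG, the core bound by ETS factors, were searched on both strands of the 300 bases and stood in 33.75% of member promoters, 8.80% of all others, 18.4% of the others with at least 50 UMIs in the gated leukocytes and 34.7% of those of mitochondrial ribosomal proteins. On the opposite strand this core reads CTTCCGG and can overlap a pyrimidine run. Measured members were then split by whether any of their starts had such a C within 10 bases. The median log2 ratio of CD8 T cells over monocytes and macrophages was 1.01 and 1.11 in the libraries labelled KO and WT for the 38 with it. It was 0.96 and 1.07 for the 27 without.

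The members took up the largest share of UMIs in CD8 T cells and the smallest in neutrophils, with the other leukocytes in between. CD8 T cells had 39.7% (39.6 to 39.8) of their UMIs from the members in the library labelled KO and 44.7% (44.6 to 44.8) in that labelled WT. T cells with no Cd4, Cd8 or Foxp3 UMI followed with 37.9% and 40.2%. CD4 T cells had 33.8% and 37.9%. B cells had 32.2% and 35.2%. Among the leukocytes the T, B and natural killer (NK) cells thus stood highest in both libraries, with regulatory T cells the lowest of them at 30.0% and 28.2%. In bulk sums like these, fewer transcripts of the members and more of other genes cannot be told apart.

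Among myeloid classes the type 1 conventional dendritic cells (cDC1) had 25.3% and 27.0%, the type 2 cells (cDC2) 24.4% and 26.2%, and migratory dendritic cells 22.2% and 23.2%. Monocytes stood at 22.0% and 25.1% and macrophages at 19.7% and 19.5%. Neutrophils were far below all others with 8.01% and 8.57%. Empty droplets had 23.5% and 21.1%. Neutrophils and macrophages lay below them in both libraries, and monocytes and migratory dendritic cells in that labelled KO. Free RNA came to 44.4% of the UMIs of the neutrophils labelled KO by the estimate given below and 7.51% of those labelled WT. Subtracting it left 7.55% in the neutrophils labelled WT and a value below 0 in those labelled KO, so that no corrected share can be given there. Plasmacytoid dendritic cells had 25.1% and 25.4%, NK cells 34.9% and 35.4%, and the few melanoma cells that passed the sort 30.4% and 28.6%. The library labelled KO held only 9 NK cells, 13 melanoma cells, 15 plasmacytoid dendritic cells and 22 neutrophils, and that labelled WT held 13 NK cells.

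The spread between cells of 1 class was wide. In CD8 T cells the range from the 25th to the 75th percentile of the cells lay between 33.2% and 49.1% in the library labelled KO and between 39.8% and 53.6% in that labelled WT, and in macrophages between 15.4% and 22.5% and between 15.2% and 22.8%. These ranges of CD8 T cells and macrophages did not overlap, while those of the same class in the 2 libraries did. Proteins of the large subunit made up 21.1% and 23.3% of the UMIs of CD8 T cells and those of the small subunit 17.5% and 19.9%, so both subunits were high in the same class. By UMIs over all gated leukocytes, Rpl41 was the most abundant member, at 9804 and 7948 CPM, followed by Rps24 at 5939 and 5531 CPM. In macrophages the subunits made up 10.8% and 10.6% for the large and 8.23% and 8.01% for the small subunit.

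**Figure D1:**
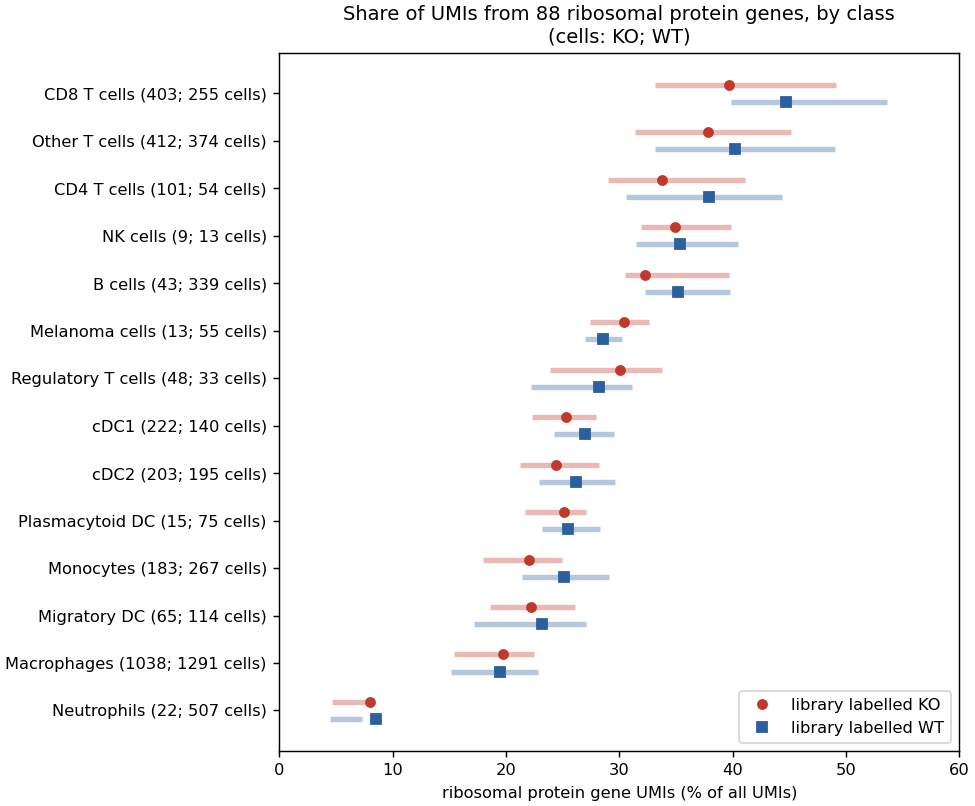
Share of UMIs from the 88 members (x axis, percent) in each marker-gated class (y axis) in the library labelled KO (circles) and that labelled WT (squares). Symbols give the share of the summed UMIs and pale bars the range from the 25th to the 75th percentile of the cells. CD8 T cells stand highest, at 39.7% and 44.7%, and neutrophils lowest, at 8.01% and 8.57%.

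Depth differed between these classes. The median barcode of the CD8 T cells held 2730 and 3184 UMIs, and that of the monocytes and macrophages together 5546 and 7052. The share in CD8 T cells was higher than that in monocytes and macrophages by 0.99 (log2; 0.99 to 0.99) in the library labelled KO and by 1.15 (1.14 to 1.15) in that labelled WT. Among barcodes with 2000 to 4000 UMIs only, these values were 1.25 and 1.28. Free RNA, by the level of haemoglobin and melanocyte genes, came to 3.13% and 3.06% of UMIs in CD8 T cells and 6.67% and 2.51% in monocytes and macrophages, and after it was subtracted the values were 1.03 and 1.17. CD8 T cells thus stood above the myeloid cells in each of these readings.

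Within CD8 T cells the share differed between the gated states. Cells in no such state had 47.6% in the library labelled KO and 43.0% in that labelled WT. Cells led by naive and memory markers such as Ccr7, Lef1, Tcf7 and S1pr1 had 47.0% in the library labelled KO (63 cells) and 44.0% in that labelled WT (72 cells). Effector cells, gated on Nkg7, Ccl5, Gzmb, Gzmk and Ifng, had 42.5% (200 cells) and 46.6% (148 cells). Effector cells thus stood below naive-like cells in the library labelled KO, by a log2 ratio of -0.15 (-0.16 to -0.13), and above them in that labelled WT, by 0.09 (0.08 to 0.09). The median over single cells put naive-like cells above effector cells in both libraries, at 50.9% against 41.5% and at 48.1% against 47.5%.

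Cells with checkpoint receptors (Pdcd1, Lag3, Havcr2 and Tigit) had 35.6% in the library labelled KO (70 cells) and 37.9% in that labelled WT, which held only 4 of them. Cycling cells had the lowest shares, 34.5% (43 cells) and 32.2% (5 cells), a log2 ratio to naive-like cells of -0.45 in both libraries. Cycling macrophages went the other way, with 21.1% against 19.5% for macrophages that did not cycle in the library labelled KO and 20.9% against 19.2% in that labelled WT. Cycling cDC1 had 24.5% against 25.6% and 25.9% against 27.4%. Cycling cells were the deepest of each class, where the median CD8 T cell held 7205 and 8726 UMIs, and the part of depth in these differences was not tested.

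The share in the library labelled KO was lower than in that labelled WT in 9 of 13 leukocyte classes, higher in 2 and not separated by counting error in 2. The log2 ratio was -0.17 (-0.18 to -0.17) in CD8 T cells, -0.17 in CD4 T cells, -0.13 in B cells and -0.19 (-0.20 to -0.18) in monocytes. It was -0.09 in cDC1, -0.10 in cDC2 and -0.06 in migratory dendritic cells. Regulatory T cells, at 0.09 (0.07 to 0.11), and macrophages, at 0.02 (0.01 to 0.02), were the leukocyte classes with a higher share. For macrophages the direction turned with the measure, since the median cell had 18.7% in the library labelled KO and 19.2% in that labelled WT. It turned for neutrophils too, whose median cell had 5.85% and 5.599%. Among barcodes of 2000 to 4000 UMIs, macrophages had 17.8% and 18.4%. In the same window cDC1 had 22.1% (17 cells) and 11.4% (9 cells), cDC2 23.3% (20 cells) and 15.9% (8 cells), B cells 37.2% (9 cells) and 36.8% (79 cells) and NK cells 37.8% (3 cells) and 35.1% (6 cells). These 4 classes were thus higher in the library labelled KO at that depth, over few cells. The melanoma cells of the injected line also had a higher share, at 0.09 (0.08 to 0.10), over 13 and 55 cells.

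All gated leukocytes together went against most classes, with 24.9% in the library labelled KO and 23.6% in that labelled WT, a log2 ratio of 0.08. The class sizes differed between the libraries as well. Neutrophils, the class with the lowest share, numbered 22 and 507. Of the classes with a share above that of the sum, CD8 T cells numbered 403 and 255 and B cells 43 and 339. The part of the class sizes in this value was not tested. Within CD8 T cells the direction depended on the state. Naive-like cells had a log2 ratio of 0.10 (0.09 to 0.11) and effector cells -0.13 (-0.14 to -0.12). Cycling cells stood at 0.10 (0.07 to 0.12) over 43 and 5 cells, checkpoint cells at -0.09 (-0.13 to -0.05) over 70 and 4 cells, and cells in no state at 0.15 (0.12 to 0.17) over 27 and 26 cells. Of the 5 groups of CD8 T cells, 3 thus went against the class as a whole. Among monocytes and macrophages together the ratio was -0.01. Differences in the mix of states and differences between genotypes cannot be told apart with 1 pool each.

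**Figure D2:**
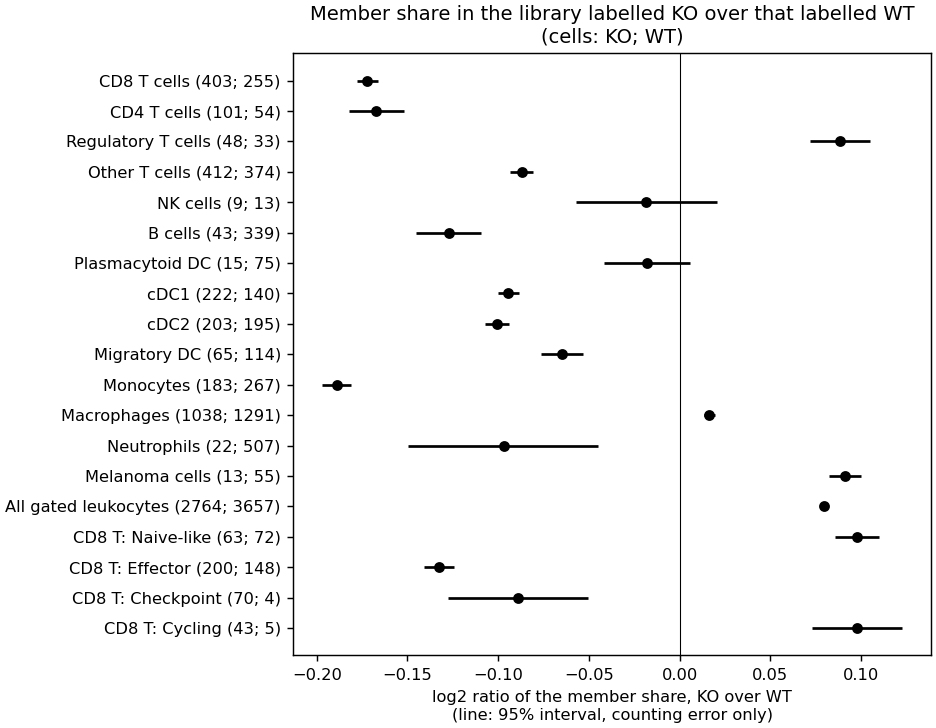
Log2 ratio of the member share of UMIs, library labelled KO over that labelled WT (x axis), for each class and for 4 marker-gated states of CD8 T cells (y axis, with cell numbers). Points are ratios and lines 95% intervals for counting error only. Most classes lie below 0, with CD8 T cells at -0.17 and monocytes at -0.19, and regulatory T cells, melanoma cells and naive-like and cycling CD8 T cells lie near 0.1.

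Gene by gene, nearly all members were higher in CD8 T cells than in monocytes and macrophages. Of the 88 members 85 had at least 50 UMIs over both classes and were measured, and Rpl39l, Rpl3l and Rpl10l were not. In the library labelled KO, 71 were at least 1.5-fold higher in CD8 T cells and 3 at least 1.5-fold lower, where 22.4% and 33% of all 8654 measured genes were. In that labelled WT, 76 were higher and 3 lower, where 17.4% and 44.1% of all 9210 genes were. The median log2 ratio of the members was 0.98 and 1.11, beside -0.12 and -0.42 for all genes.

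Rps27, a zinc-binding protein of the small subunit, led this order in both libraries. It stood at 7386 CPM in CD8 T cells and 2032 CPM in monocytes and macrophages of the library labelled KO, which is a log2 ratio of 1.86 (1.83 to 1.90). In the library labelled WT it stood at 9959 and 2102 CPM, a log2 ratio of 2.24 (2.21 to 2.28). CD8 T cells were far above the myeloid cells both times, and the level in the myeloid cells was nearly the same in the libraries. Rpl13a, a large-subunit protein that also acts outside the ribosome in inflammatory translation control, had log2 ratios of 1.72 and 1.74. Rps15a had 1.64 and 1.70, and Rpl12, a protein of the ribosomal stalk base, 1.55 and 1.73. Rps24, a small-subunit protein, was among the most abundant members at 11178 and 14461 CPM in CD8 T cells, with log2 ratios of 1.40 and 1.82. Rps27rt, an intron-less copy of Rps27, had 97.4 and 97.8 CPM and log2 ratios of 1.36 and 2.04, and since the copies are nearly identical its counts are uncertain.

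The members that went against the rest were variants and partners of ribosomal proteins. Rps27l, a paralog of Rps27 that p53 induces, stood at 310.5 CPM in CD8 T cells and 637 CPM in monocytes and macrophages of the library labelled KO, which is a log2 ratio of -1.04 (-1.18 to -0.90). In the library labelled WT it stood at 125 and 502 CPM, a log2 ratio of -2.00 (-2.27 to -1.74). It was thus lower in CD8 T cells in both libraries, in contrast to Rps27. Rps19bp1 had log2 ratios of -0.73 and -1.25, and Rpl7l1, a paralog of Rpl7 that is needed to assemble the large subunit, -0.63 and -1.21. These 3 are the members counted as lower. Rpl36al, a paralog of Rpl36a, was nearly level at -0.03 and -0.13.

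The members that the rule lists by name lay within the range of the others. The acidic stalk proteins Rplp1 and Rplp2 had log2 ratios of 1.40 and 1.62 and of 0.926 and 1.201, their anchor Rplp0 1.04 and 1.07, and the small-subunit protein Rpsa 1.29 and 1.41. Eef1a1 had 0.53 and 0.63 and Tpt1 0.53 and 0.89. These last values fall below the median of the members in both libraries.

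**Figure D3:**
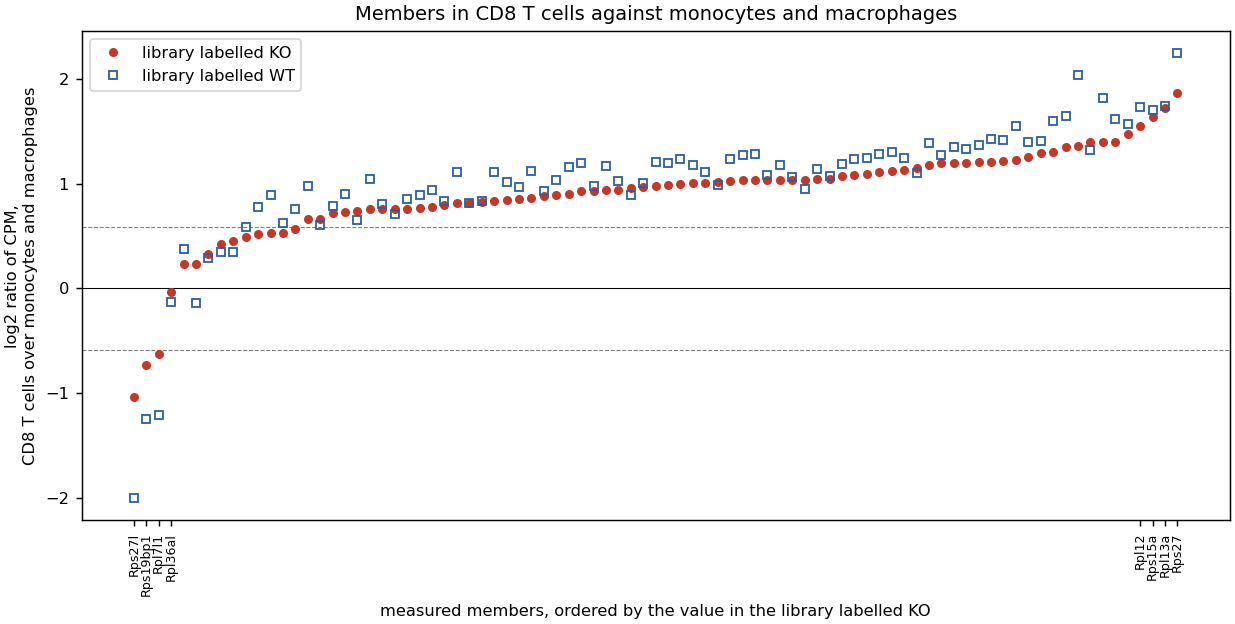
Log2 ratio of CPM in CD8 T cells over monocytes and macrophages (y axis) for the 85 measured members, ordered by their value in the library labelled KO (x axis, with the 4 lowest and highest named). Filled circles are the library labelled KO, open squares that labelled WT, and dashed lines mark 1.5-fold. Nearly all points lie above 0, with Rps27 at 1.86 and 2.24, and Rps27l, Rps19bp1 and Rpl7l1 lie below the lower dashed line.

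Genes with related functions were read the same way. Of 18 further TOP mRNAs and ribosomal proteins with other names, such as Rack1, Eef1b2 and Pabpc1, 13 were at least 1.5-fold higher in CD8 T cells in each library. In the libraries labelled KO and WT 0 and 1 were at least 1.5-fold lower, and the medians were 0.83 and 0.73. Mitochondrial ribosomal proteins, which serve the separate ribosome of mitochondria, were seldom higher. In the library labelled KO 2 of 78 were higher and 16 lower (median -0.23), where 22.4% and 33% of all genes were. In that labelled WT 0 were higher and 43 lower (median -0.64), where 17.4% and 44.1% of all genes were. Of 32 ribosome biogenesis genes, such as Ncl and Fbl, 14 were higher and 0 lower in the library labelled KO, and 6 were higher and 10 lower in that labelled WT. Of 14 regulators of TOP mRNA translation, such as Larp1 and Mtor, 2 were higher and 5 lower, and 1 higher and 5 lower. The medians of the cytosolic members thus lay above those of all genes in both libraries, and the medians of the mitochondrial list below them.

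Most members were also higher in B cells, in a comparison that shares its monocytes and macrophages with the one above. In the library labelled KO, 50 of 85 members were at least 1.5-fold higher in B cells than in monocytes and macrophages and 3 lower, where 28.7% and 23.7% of all genes were. In that labelled WT 54 were higher and 1 lower, where 28.9% and 35.1% of all genes were. Rps27 reached 9111 and 11141 CPM in B cells, with log2 ratios of 2.16 and 2.41. Rps27l reached 113 CPM from 10 UMIs in the library labelled KO and 176 CPM in that labelled WT, with log2 ratios of -2.49 and -1.51.

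Neutrophils were read in the library labelled WT, which held 507 of them. There 81 of 85 members were at least 1.5-fold lower than in monocytes and macrophages and 0 higher, where 57.7% and 17.2% of all genes were. The median log2 ratio was -1.42 for the members, -0.84 for all genes and -1.71 for mitochondrial ribosomal proteins. Rps27, at 2581 CPM against 2102 CPM, was one of the 2 members above 0, with a log2 ratio of 0.30 (0.24 to 0.35). The other was Rps9 of the small subunit, singled out after its values were seen, at 3384 CPM against 3017 CPM and 0.17 (0.12 to 0.21).

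Paralogs of a pair were used in different proportions across the classes. In CD8 T cells Rps27l made up 4.03% (3.69 to 4.40) of the UMIs of Rps27l and Rps27 in the library labelled KO and 1.24% (1.03 to 1.48) in that labelled WT. It made up 1.23% and 1.56% in B cells, 11.0% and 6.72% in regulatory T cells and 18.1% and 14.2% in cDC1. Macrophages had 25.4% (24.8 to 26.1) and 21.4% (20.9 to 21.9), migratory dendritic cells 24.95% and 19.2%, and melanoma cells 40.7% and 37.3%. T, NK and B cells other than regulatory T cells had at most 4.12% in either library, and macrophages and tumour cells stood far above them. Neutrophils labelled WT stood as low as these lymphocytes, at 4.08% (3.42 to 4.84), and those labelled KO had 12.4% from 12 Rps27l UMIs. Plasmacytoid dendritic cells had 6.76% and 4.78%.

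Rps27l made up more of its pair in cycling cells of the CD8 T cells and macrophages. In CD8 T cells it made up 14.3% (12.7 to 16.0) of the pair in cycling cells of the library labelled KO and 6.96% (4.03 to 11.1) in the 5 cells of that labelled WT, against 1.25% and 1.43% in naive-like cells. Cycling macrophages had 31.8% and 28.1%, and macrophages that did not cycle 24.5% and 20.2%. Cycling cDC1 had 19.9% and 15.8%, and other cDC1 17.5% and 13.7%, with intervals that overlap in both libraries. In the cDC1 labelled KO the level of Rps27l itself was 591 CPM in cycling cells and 599 CPM in the others.

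Rpl36al made up 19.1% and 15.7% of the UMIs of Rpl36al and Rpl36a in CD8 T cells, 36.3% and 34.6% in macrophages and 43.8% and 46.9% in melanoma cells. Rpl22l1, the paralog of the RNA-binding protein Rpl22, made up 28.0% and 31.0% of its pair in CD8 T cells, 18.0% and 18.5% in cDC1, 20.9% and 24.5% in macrophages and 31.8% and 37.2% in melanoma cells. Rpl22l1 thus stood higher in CD8 T cells than in the myeloid classes named here, and Rps27l and Rpl36al lower. Rpl7l1 made up 1.79% and 1.15% in CD8 T cells and 5.15% and 5.48% in macrophages. Rpl10l had no UMI in any gated class, and Rpl39l made up at most 0.21% of its pair in any of the main classes. Rpl3l had 12 and 33 UMIs in all gated leukocytes. Of these, 20 lay in the neutrophils labelled WT, where they made up 4.37% (2.69 to 6.66) of the pair, and the 22 neutrophils labelled KO, with 1 Rpl3l UMI, are too few to set beside them.

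**Figure D4:**
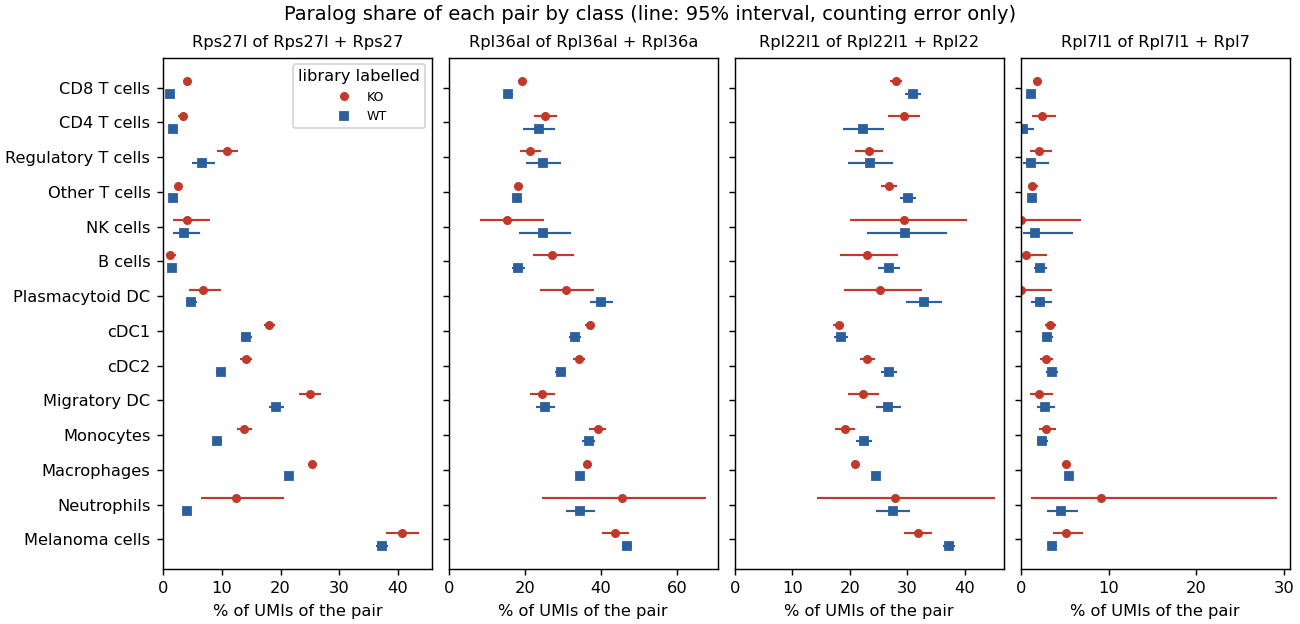
Percent of the UMIs of a pair that came from the paralog (x axis) in each class (y axis), for Rps27l, Rpl36al, Rpl22l1 and Rpl7l1. Circles are the library labelled KO and squares that labelled WT, with 95% intervals for counting error only. Rps27l runs from 1.23% and 1.56% in B cells to 40.7% and 37.3% in melanoma cells.

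The makeup of the pool was compared by dividing each member's UMIs by those of all members. Over 10 classes with enough UMIs, 83 members could be followed, and the median member differed 1.42-fold between its highest and lowest class. For 53 members the range was under 1.5-fold, and for 8 it was at least 2-fold. Rpl27a, a large-subunit protein singled out after its values were seen, was the steadiest at 1.09-fold. Rps27l differed 11.3-fold, between migratory dendritic cells (0.565% and 0.400% of the pool) and B cells (0.035% and 0.050%). Rps27 differed 3.04-fold, between B cells (2.83% and 3.16%) and macrophages (0.984% and 0.986%). Rpl13a, Rplp1 and Rpl12 were also above 2-fold, each highest in a T cell class. Rps27rt, at 3.09-fold, was highest in B cells. Rpl36al, at 2.22-fold, was highest in macrophages, and so was a further member above 2-fold.

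Between the libraries, few members differed by a large factor. In CD8 T cells 2 of 85 members were at least 1.5-fold higher in the library labelled KO and 0 lower, where 21% and 6.81% of all 4612 genes were. The median log2 ratio, KO over WT, was -0.14 for the members and 0.21 for all genes. In monocytes and macrophages 1 of 85 was higher and 0 lower, where 5.47% and 5.25% of all 9787 genes were, with medians of -0.01 for the members and 0.01 for all genes. In CD8 T cells 18 of 66 mitochondrial ribosomal proteins were at least 1.5-fold higher and 0 lower (median 0.38), and in monocytes and macrophages 1 of 78 was higher and 0 lower (median 0.04). In CD8 T cells the median of the mitochondrial list thus lay above 0, as did that of all genes (0.21), while the cytosolic median lay below 0. The 18 of 66 stand beside the 21% of all genes. The totals include the members, so their lower share in the CD8 T cells labelled KO by itself raises the ratios of other genes there.

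The 2 members counted as higher in CD8 T cells were Rps27l and Rps19bp1. Rps27l had 310.5 CPM in the library labelled KO (475 UMIs) and 125 CPM in that labelled WT (123 UMIs), a log2 ratio of 1.31 (1.02 to 1.61). The cycling cells, 43 and 5 in number, held 255 and 16 of these UMIs. In effector cells the ratio was 0.96 (0.46 to 1.48) and in naive-like cells -0.19 (-0.98 to 0.57). Rps19bp1 had 36.0 and 22.4 CPM from 55 and 22 UMIs, and its ratio of 0.68 (-0.05 to 1.47) is not separated from 0 by counting error.

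Eef1a1 was among the lowest members in both comparisons. It had 4214 CPM in CD8 T cells labelled KO and 6119 CPM in those labelled WT, a log2 ratio of -0.54 (-0.59 to -0.49). In monocytes and macrophages it had 2921 and 3962 CPM, a ratio of -0.44 (-0.46 to -0.42). Rplp0 had ratios of -0.45 and -0.42 in these classes, and Rpl29, a small basic large-subunit protein, -0.55 and -0.36. All 3 were lower in both classes by more than counting error. In CD8 T cells Tpt1 stood at -0.50 and Rpl8, a large-subunit protein, at -0.46, and in monocytes and macrophages Rpl14 stood at -0.34 and Rpl4 at -0.28, both large-subunit proteins.

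Some members were higher in the library labelled KO. Rpl41, which encodes the shortest ribosomal protein and was the most abundant member, had 14607 CPM in CD8 T cells labelled KO and 11658 CPM in those labelled WT, a log2 ratio of 0.33 (0.29 to 0.36), and 0.24 (0.23 to 0.26) in monocytes and macrophages. Rpl36al had 0.24 and Rps26 of the small subunit 0.15 in CD8 T cells. In monocytes and macrophages Rps27rt had 0.67 from 296 and 297 UMIs, Rps27l 0.35, Rplp2 0.23 and Rpl30 of the large subunit 0.18.

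Part of this pattern recurred across classes once each member was taken as a share of the pool. Of 81 members measured in all 13 leukocyte classes, 5 had a lower pool share in the library labelled KO in every class. They were Rplp0 (log2 ratios of -0.65 to -0.12), Eef1a1 (-0.62 to -0.20), Rpl29 (-0.59 to -0.11), Rpl21 of the large subunit (-0.31 to -0.03) and Rpsa (-0.54 to -0.07). Among the members higher in every class, which like the 5 were picked by this count, were Rps20 of the small subunit (0.05 to 0.62) and Rpl22 (0.04 to 0.38). The classes of 1 genotype share a library, so they do not repeat the comparison independently.

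The same ratios were taken in the melanoma cells, whose own genes do not differ by group, and in empty droplets, which hold free RNA of the suspension. In the melanoma cells Rplp0 stood at -0.24, Eef1a1 at -0.37, Rpl29 at -0.27, Rpl21 at -0.12 and Rpsa at -0.27. In empty droplets they stood at -0.35, -0.28, -0.46, -0.20 and -0.13. These 5 members were thus lower in the library labelled KO also in melanoma-gated barcodes and in empty droplets. The melanoma-gated barcodes had 849 and 660 CPM of the macrophage markers, and those that also passed a leukocyte gate were kept. Leukocyte RNA among them was therefore not excluded. Rps20 stood at 0.17 and 0.23 and Rpl22 at 0.33 and 0.17 in melanoma cells and empty droplets. Rpl41 was level in melanoma cells at -0.0045 and stood at 0.23 in empty droplets. Library preparation, exposure of the tumour cells to the host and genotype cannot be told apart here.

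**Figure D5:**
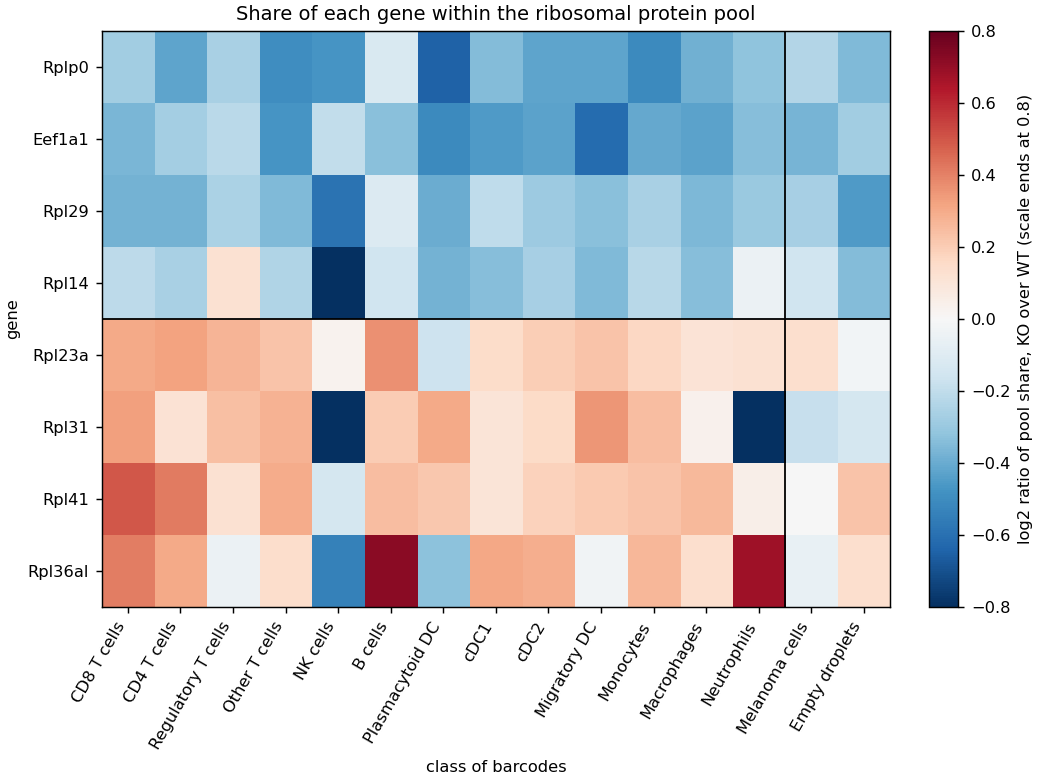
Log2 ratio of each gene's share of the member pool, library labelled KO over that labelled WT (colour, scale ending at 0.8 in both directions). Columns are 13 leukocyte classes, melanoma cells and empty droplets (x axis). Rows are the 4 lowest and 4 highest medians over leukocyte classes among members measured in all 13 (y axis). Rps27rt and Rps27l, measured in 8 and 12 classes, had higher medians (0.68 and 0.50) and are not shown. Rplp0, Eef1a1 and Rpl29 are lower in every column, melanoma cells and empty droplets included. NK cells rest on few cells in both libraries and neutrophils in that labelled KO.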

How the data were processed

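The authors deposited raw UMI counts per gene for every barcode, without normalisation or cell calling. Per the file headers, the matrices come from Cell Ranger 3.1.0. The submitters' processing notes list mm10, Seurat 3.2.0 and R 3.6.1 and do not say what each was used for. The T cell receptor tables were not used.

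Barcodes with at least 1000 UMIs, 500 genes and at most 10% mitochondrial UMIs were kept. Classes were gated on summed UMIs of marker lists, with minimums from 1 to 20 UMIs set after the data were seen. Barcodes in gates of more than 1 lineage were dropped, except those in the melanoma gate. Scrublet (scanpy 1.11.5) was run as an alternative, removing 2.55% and 3.50% of the cells labelled KO and WT. Empty droplets had 10 to 100 UMIs. UMIs were summed per class and library. Shares have Clopper-Pearson intervals, and log2 ratios of CPM have exact conditional binomial intervals (Python 3.11.15, scipy 1.17.1), which treat UMIs as independent. A 5′ tag counts transcripts, so CPM was not scaled by length. Genes with at least 50 UMIs over both sides were measured, 1.5-fold was the rule of size, and where 1 side had no UMI its ratio was taken against 3 counts and used only as a bound. The interval code was tested on simulated counts. Sequences and positions are from RefSeq tables (GRCm38.p6).

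The named members are the 6 listed in the rule, the paralog pairs, Rps19bp1, the 5 with the highest CPM, and the 5 highest and lowest in each comparison by the bound nearest 0. Some members are counted but not reported by name here. The members and lists were chosen with earlier results of these data known.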

Additional observations from a re-analysis of the deposited data

Results flagged for a closer look

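Against the lower member share of CD8 T cells in the library labelled KO (log2 ratio of -0.17), other groups had a higher share in that library. Among classes these were regulatory T cells at 0.0884, macrophages at 0.0163 and melanoma cells at 0.0910. Among states of CD8 T cells they were naive-like cells at 0.0977, cycling cells at 0.0976 and cells in no state at 0.145. Macrophages stood at 0.0112 where they cycled and 0.0195 where they did not, and the sum of all gated leukocytes at 0.0796. With 1 library per genotype these differences between cell groups were not tested.

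Features with pseudogene names, which the members leave out, also had UMIs in the kept cells. The 9 such features held 1653 UMIs in the library labelled KO, which is 0.0361% of the member UMIs, and 1862 in that labelled WT, which is 0.0277%. Rpl10-ps3 had the most, with 520 and 522 UMIs, followed by Rpl27-ps3 with 382 and 457. How far these UMIs stem from the parent genes was not tested.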

How the results depend on the processing

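No paired analysis was possible because there is 1 RNA library per genotype and no result comes from a test. The values below are log2 ratios of the member share, given in the order CD8 T cells over monocytes and macrophages in the libraries labelled KO and WT (0.99 and 1.15 as reported), then KO over WT in CD8 T cells and in monocytes and macrophages (-0.17 and -0.01), and only where they moved beyond counting error. At least 2000 UMIs per barcode gave 0.96, 1.13 and -0.19 for the first 3. At most 5% mitochondrial UMIs gave 0.97, 1.14 and -0.19. Stricter gates gave 0.95, 1.13, -0.19 and -0.0094. Removing Scrublet doublets gave 0.999 and 1.16, and a total without mitochondrial UMIs gave 1.002 and 1.16. Structural ribosomal proteins alone gave 1.01, 1.17, -0.16 and -0.0045. The mean of single cells gave 1.09 and 1.22, and -0.0413 for KO over WT in monocytes and macrophages. Subtracting free RNA gave 1.03 and 1.17, and -0.0301 for the same. Barcodes of 2000 to 4000 UMIs gave 1.25, 1.28, -0.12 and -0.0894.

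The mix of states was varied too. Effector cells alone gave -0.13 for KO over WT, the other T cells added gave -0.12, and naive-like cells alone reversed the value to 0.10. Monocytes alone gave -0.19, and macrophages alone reversed the value to 0.0163. The depth window and these subsets were chosen after seeing the data, and the causes were not tested.

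With the members left out of the total, their median was 1.39 and 1.64 for CD8 T cells over monocytes and macrophages in the libraries labelled KO and WT, and -0.27 for KO over WT in CD8 T cells. Taken as a share of the pool, 4 values past 1.5-fold turned negative by construction, since each lay below the pool's own ratio: Rplp2 at -0.0644 in the library labelled KO, and Rplp0 at -0.0766, Eef1a1 at -0.52 and Tpt1 at -0.26 in that labelled WT. Below 1.5-fold, Eef1a1 and Tpt1 in the library labelled KO each stood at -0.46 in the pool. Of the alternative values other than the 4 for named members, paralog shares and the pyrimidine run, 162 stayed within counting error and 55 moved. Counting depth limits Rps19bp1 and Rpl7l1, with 22 and 27 UMIs in the CD8 T cells labelled WT.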
